A study of Mus musculus with 46 samples.

Results

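The mouse microRNAs miR-219 and miR-338 were followed through the storage of brain, heart and liver. MicroRNAs (miRNAs) are short RNAs that guide a protein complex to messenger RNAs through their seed, bases 2 to 8 of the mature strand. miR-219 and miR-338 are best known from oligodendrocytes, the cells that wrap nerve fibres of the brain and spinal cord in myelin. Both are induced when oligodendrocyte precursors leave the cell cycle, and they repress genes that keep these precursors dividing. A hairpin precursor can give a mature miRNA from each of its arms, named 5p and 3p.

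All miRNAs of the array named miR-219 or miR-338, with any letter or arm, were taken, which gave 9 of 1881 mouse miRNAs. The software of the scanner called 4 of the 9 detected on at least 5 of the 45 analysed arrays. These were mmu-miR-219a-5p (43 arrays), mmu-miR-338-3p (42 arrays), mmu-miR-338-5p (39 arrays) and mmu-miR-219a-2-3p (16 arrays). The other 5, mmu-miR-219a-1-3p, mmu-miR-219b-5p, mmu-miR-219b-3p, mmu-miR-219c-5p and mmu-miR-219c-3p, were detected on 0 of 45 arrays. Their values lay between -5.23 and 1.32 on the log2 scale, with a median of -2.86, and they did not enter the tests. The 4 detected miRNAs are among 815 miRNAs that passed this filter, and a miRNA detected in 1 tissue could pass it through that tissue alone.

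The study asked how storage of tissue before RNA isolation alters miRNA profiles. Brain, heart and liver of male C57BL6 mice of an Il1a knock-out strain, a deletion that all groups share, were cut into pieces after death, and the pieces of an animal were kept either at room temperature (RT) or cold, at 4 °C. Storage lasted 0, 1, 3, 6, 12, 24, 48 or 96 h. The methods give a slightly later time for the pieces labelled 12 h, and the time of the labels is used here. Age and agents other than storage are not stated. Total RNA of 1 piece was hybridised to each 1-colour array. The groups were brain at 4 °C (8 arrays), brain at RT (8 arrays), heart at 4 °C (7 arrays, without 0 h), heart at RT (8 arrays), liver at 4 °C (6 arrays, without 6 and 96 h) and liver at RT (8 arrays). All arrays of a tissue and a temperature came from the pieces of 1 animal and lay on 1 slide, so that temperature, animal and slide cannot be told apart within a tissue. Per the methods, the brain, heart and liver of a temperature came from the same animal, so that the comparisons of tissues rest on 2 animals. No time point has a replicate, and each time point is a different piece of the organ, so that time and piece cannot be told apart either.

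RNA integrity is given by the RIN, a number from the Bioanalyzer trace that is higher in less degraded RNA. It ranged from 2.2 to 9.1 and was over 6 on 14 of 16 brain, 13 of 15 heart and 6 of 14 liver arrays. Between 268 and 798 miRNAs were detected on an array, with the most on the brain array of 96 h at RT, and their summed signal lay between 153088 and 541770 units. All values below are log2 values after variance stabilizing normalization (VSN), in which 1 unit is a 2-fold difference for bright miRNAs and less than the true fold for dim ones. The arrays measured whole tissue, so that the cells that carried a miRNA were not observed. The probes of different miRNAs differ in brightness, so that levels are compared between arrays and not between miRNAs. On all 16 brain arrays, 10 of 10 neuronal miRNAs were detected, among them miR-124-3p, which ranged from 12.93 to 13.83. Fewer cells of a type and less RNA per cell cannot be told apart in such pieces of tissue.

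The mature sequences of the 3 miRNAs that were detected in more than 1 tissue are printed first, since the results compare them throughout. Sequences and coordinates are those of RefSeq on GRCm38.p6, where 8 of the 9 members have an entry, and capitals mark the seed.
mmu-miR-219a-5p: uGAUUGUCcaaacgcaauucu
mmu-miR-338-3p: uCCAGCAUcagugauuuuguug
mmu-miR-338-5p: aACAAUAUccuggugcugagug

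These 3 have different seeds, as do all 8 mature members with an entry, and none shares its seed with another mouse miRNA of the table. Both miR-338 strands come from 1 hairpin, Mir338, at chr11:120014765-120014862 on the minus strand. It lies within the span of Aatk, a gene for a kinase of the nervous system, and 87 of its 98 bases overlap Mir3065 on the opposite strand. The hairpin is shown because the slopes of its arms on storage time had opposite signs in liver at RT. That difference between the arms was not tested. Capitals mark the 5p arm and then the 3p arm.
Mir338: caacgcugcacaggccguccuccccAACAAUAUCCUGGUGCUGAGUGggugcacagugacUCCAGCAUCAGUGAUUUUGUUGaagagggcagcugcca

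mmu-miR-219a-5p has 2 genes. Mir219a-1 lies at chr17:34024983-34025092 and Mir219a-2 at chr2:29845631-29845727 within the span of Cercam, both on the minus strand. The 21 bases of the mature strand are the same in both, so that the array cannot assign its signal to either gene. The hairpins are shown because the other arm differs between them, and capitals mark the mature strands that have an entry.
Mir219a-1: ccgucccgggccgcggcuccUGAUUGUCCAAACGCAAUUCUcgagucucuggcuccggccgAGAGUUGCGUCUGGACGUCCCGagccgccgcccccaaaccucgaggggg
Mir219a-2: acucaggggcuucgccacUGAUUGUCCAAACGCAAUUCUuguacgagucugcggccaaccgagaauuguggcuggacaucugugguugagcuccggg

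The 3p arms therefore tell the genes apart. mmu-miR-219a-2-3p, the 3p arm of Mir219a-2, was detected on 16 of 16 brain arrays, and mmu-miR-219a-1-3p, that of Mir219a-1, on 0 of 16. The names miR-219b and miR-219c stand for hairpins read from the opposite strand of the same loci. Mir219b shares 65 bases with Mir219a-2 and Mir219c shares 60 bases with Mir219a-1. The strand of Mir219b that pairs with mmu-miR-219a-5p over 21 bases is printed to show that its probe targets the complementary sequence.
mmu-miR-219b-3p: aGAAUUGCguuuggacaaucagu

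mmu-miR-219b-3p was detected on 0 of 45 arrays, including the brain array on which mmu-miR-219a-5p reached 12.08. Of the miRNAs opposite Mir338, mmu-miR-3065-5p was detected on 0 and mmu-miR-3065-3p on 4 of 45 arrays.

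The first comparison was between tissues. The 3 miRNAs detected in all tissues were higher in brain than in heart and liver, and mmu-miR-219a-2-3p was detected in brain only. In brain, mmu-miR-219a-5p ranged from 9.85 to 12.08 with a median of 10.82 over 16 arrays. In heart it ranged from 4.10 to 5.24 (median 4.91, 15 arrays), and in liver from 0.85 to 6.09 (median 4.78, 14 arrays). The lowest brain array was thus 3.76 above the highest array of the other tissues.

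mmu-miR-338-3p showed the same order, with 9.38 to 12.33 in brain (median 10.19), 4.34 to 5.70 in heart (median 5.19) and 0.93 to 5.64 in liver (median 4.51). Its lowest brain array lay 3.68 above the highest heart array. mmu-miR-219a-2-3p ranged from 6.09 to 8.56 in brain (median 7.10) and was not detected on any of the 29 heart and liver arrays, where its signals near background gave values of at most 0.51. mmu-miR-338-5p was dim throughout, with 2.45 to 3.47 in brain (median 3.05), 0.59 to 1.90 in heart (median 1.57) and 0.28 to 2.96 in liver (median 1.85). Its brain and heart arrays did not overlap, while 2 liver arrays, those of 24 and 48 h at RT, reached into the brain range.

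**Figure D1:**
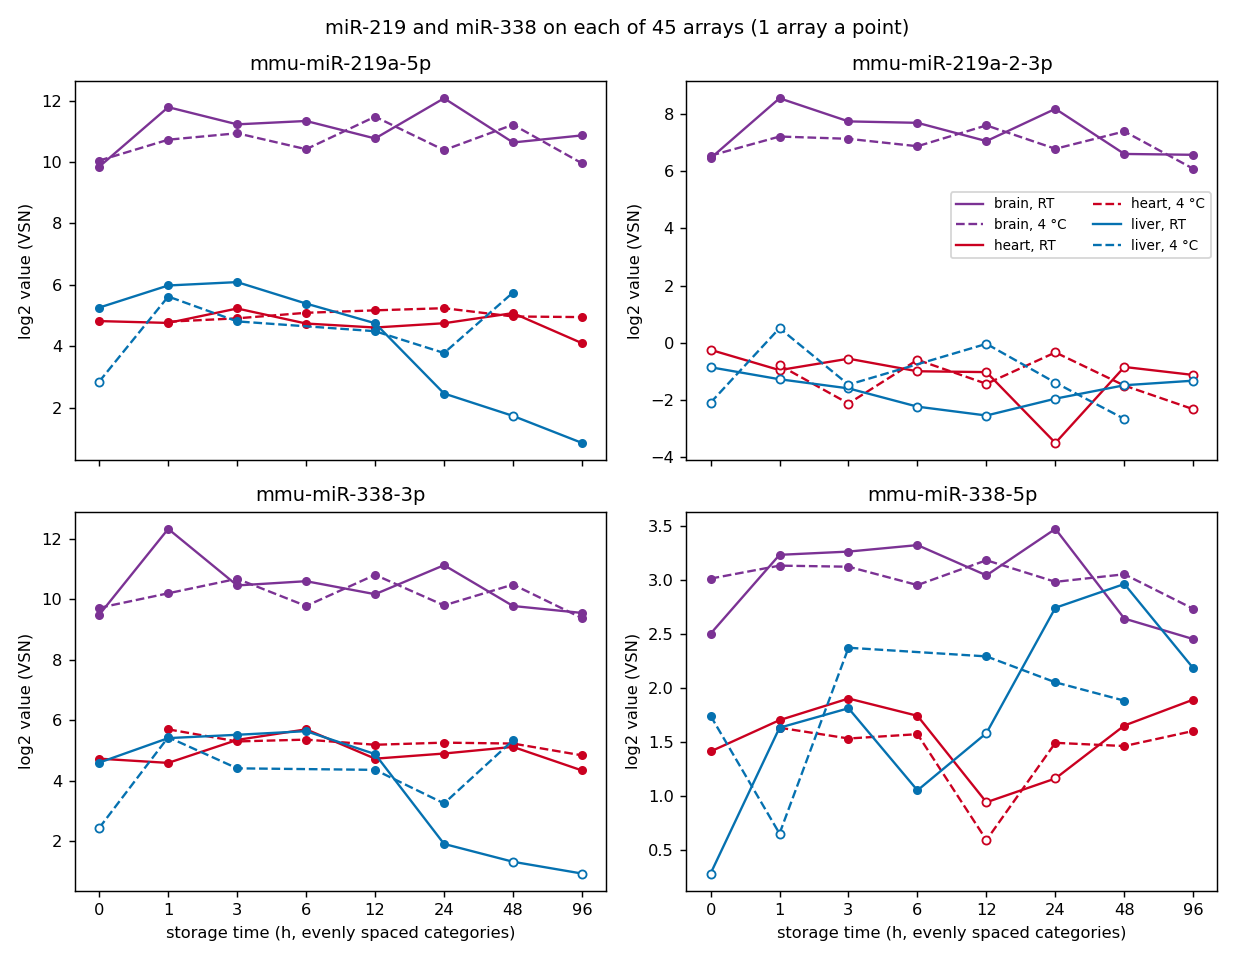
Log2 values after VSN (y axis) of the 4 detected miRNAs by storage time in hours (x axis, evenly spaced categories), with 1 point for each of 45 arrays, a colour for each tissue, solid lines for RT and dashed lines for 4 °C. Open points are arrays on which the miRNA was not detected. The brain arrays of mmu-miR-219a-5p lie at 9.85 or higher and all others at 6.09 or lower, and the liver arrays of 24 to 96 h at RT lie at 2.46 or lower.

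Among the 33 arrays with a RIN over 6, a limma fit with the slide as a random block called the 3 miRNAs detected in all tissues higher in brain than in heart, and likewise higher in brain than in liver, after Benjamini-Hochberg adjustment over the 815 miRNAs. Of all 815, 384 (47.1%) were higher in brain than in heart and 473 (58%) higher in brain than in liver at an adjusted p under 0.05. mmu-miR-219a-5p was 5.96 ± 0.251 (SE) higher in brain than in heart, or 62-fold (95% interval 5.44 to 6.47 on the log2 scale; adjusted p = 2.36e-21). Against liver the difference was 6.40 ± 0.313, or 84.5-fold (adjusted p = 2.73e-19). mmu-miR-338-3p was 37.3-fold higher in brain than in heart (log2 5.22 ± 0.281; adjusted p = 3.11e-18) and 77.5-fold higher than in liver (6.28 ± 0.35; adjusted p = 1.11e-17).

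mmu-miR-219a-2-3p passed the filter on detection through brain alone, so that its difference is a description with no test. It was not detected outside brain. Each heart or liver array with a RIN over 6 was therefore set to the lowest signal of any miRNA called detected on it. Brain was then 57.2-fold higher than heart (7.24 against 1.41 on the log2 scale) and 49.3-fold higher than liver (against 1.62). These set values are not strict upper bounds, since a miRNA can go undetected above them. On the liver array of 0 h at 4 °C the set value was 1.74, and mmu-miR-219a-5p was not detected at 2.85. The measured means were -1.26 in heart and -0.89 in liver. mmu-miR-338-5p, the other strand of the miR-338 hairpin, was 1.63 ± 0.187 higher in brain than in heart, or 3.1-fold (adjusted p = 1.62e-09), and 1.52 ± 0.234 higher than in liver, or 2.88-fold (adjusted p = 5.59e-07). After VSN the 5p strand thus had a smaller difference between tissues than the 3p strand, and this difference between strands was not tested. VSN compresses dim signals, and mmu-miR-338-5p was detected on 12 of 15 heart and 11 of 14 liver arrays. Its folds therefore cannot be set beside those of the bright strand as like measures.

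Between heart and liver the differences were smaller. Of the 3 miRNAs detected in both, 1 was called between them, beside 441 of 815 (54.1%) over all miRNAs. mmu-miR-338-3p was 1.05 ± 0.354 higher in heart, or 2.08-fold (limma adjusted p = 0.0126), beside a median of 0.60 over all 815, and this call depended on arrays and scaling. With all 45 arrays the difference was 1.12 with a wider error (SE 0.544; adjusted p = 0.119), and with quantile normalization it was 0.51 (adjusted p = 0.245). The fit gave 0.44 ± 0.317 for mmu-miR-219a-5p (95% interval -0.199 to 1.09) and -0.11 ± 0.236 for mmu-miR-338-5p (-0.587 to 0.373). The neighbours heart and liver in the order of levels were therefore not separated for these 2 miRNAs, and mmu-miR-219a-2-3p was below detection in both. The liver array of 0 h at 4 °C is part of this comparison, with a RIN of 9.1, 268 detected miRNAs and 2.85 for mmu-miR-219a-5p and 2.44 for mmu-miR-338-3p, both not detected.

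Other miRNAs linked to oligodendrocyte development were mixed between the tissues. From a list of 15, 5 were higher and 6 lower in brain than in heart, with a median difference of -0.37 beside 0.44 over all 815. Against liver 9 were higher and 3 lower, with a median of 1.28 beside 1.12. Of the neuronal list, 10 of 10 were higher in brain than in heart and than in liver, with medians of 7.46 and 8.76. Among them, miR-124-5p and miR-495-3p were detected on brain arrays only. They passed the filter through brain alone, so that their part in this count is a description and not a test. The differences of mmu-miR-219a-5p and mmu-miR-338-3p thus lay nearer to the median of the neuronal list than to that of the oligodendrocyte list. The oligodendrocyte list was wide, from -3.78 (miR-214-3p) to 10.07 (miR-9-5p) against heart, with miR-7a-5p at 5.26. The medians therefore do not place the 2 miRNAs in a cell type.

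The second question was how the miRNAs varied over the pieces of brain. They moved together and not steadily with time. In order of storage time, from 0 to 96 h, the 8 pieces kept at RT had 9.49, 12.33, 10.46, 10.60, 10.17, 11.13, 9.78 and 9.55 for mmu-miR-338-3p. mmu-miR-219a-5p was 9.85, 11.79, 11.23, 11.34, 10.77, 12.08, 10.64 and 10.87 on the same arrays. Both were lowest at 0 h, and both had peaks at 1 h and at 24 h with lower values between them. The step from 0 to 1 h was 2.84 for mmu-miR-338-3p, or 7.15-fold.

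mmu-miR-219a-2-3p followed in the same order of pieces with 6.46, 8.56, 7.75, 7.70, 7.06, 8.19, 6.61 and 6.58. mmu-miR-338-5p was 2.50, 3.23, 3.26, 3.32, 3.04, 3.47, 2.64 and 2.45. The array of 0 h at RT had the lowest summed signal of the brain arrays, 249616 units, beside 385643 units at 1 h; the part of total signal in these values was not tested.

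At 4 °C, mmu-miR-219a-5p was 10.05, 10.73, 10.94, 10.42, 11.48, 10.39, 11.22 and 9.96, again in order of storage time. mmu-miR-338-3p was 9.72, 10.20, 10.68, 9.78, 10.81, 9.80, 10.49 and 9.38. mmu-miR-219a-2-3p was 6.55, 7.22, 7.14, 6.88, 7.61, 6.79, 7.40 and 6.09. These 3 were highest at 12 h and lowest at 96 h. mmu-miR-338-5p had its highest value there as well, 3.18 at 12 h, and its lowest, 2.73, at 96 h.

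**Figure D2:**
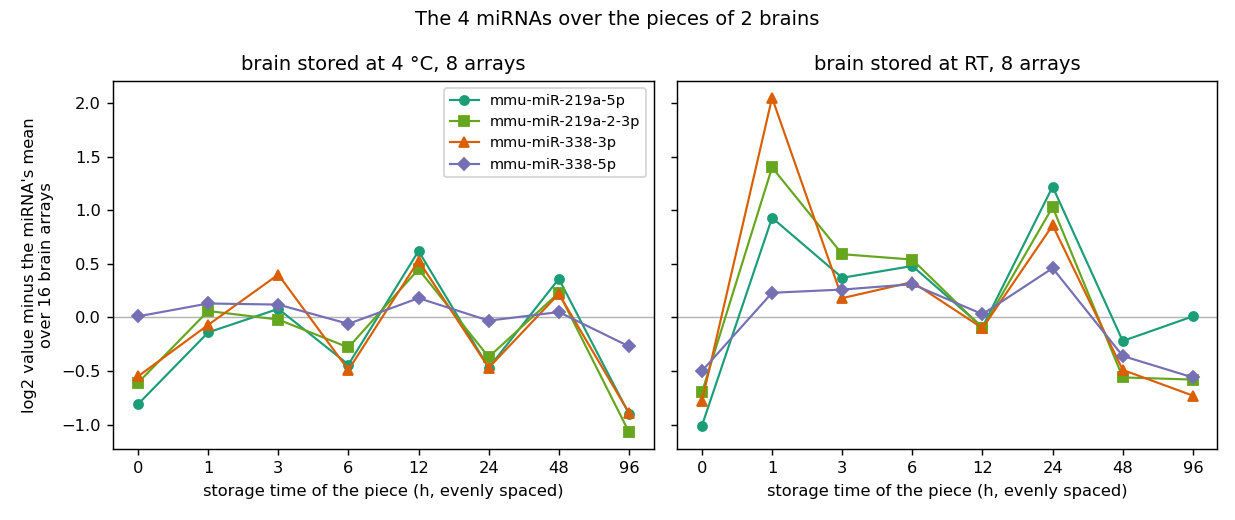
Log2 value after VSN minus the mean of the same miRNA over the 16 brain arrays (y axis) by storage time of the piece in hours (x axis, evenly spaced), for brain stored at 4 °C (left) and at RT (right), with 1 line for each miRNA and 1 point for each array. The lines of mmu-miR-219a-5p, mmu-miR-219a-2-3p and mmu-miR-338-3p rise and fall on the same arrays, with the highest point of mmu-miR-338-3p at 2.05 on the array of 1 h at RT.

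Over the 16 brain arrays, which are pieces of 2 brains, the 6 pairs of miRNAs were all positively correlated. The permutation p-values below are set against no correlation and do not compare the pairs with other miRNAs of brain. The median r with mmu-miR-338-3p was 0.72 over 10 neuronal miRNAs and 0.04 over all 815. The strongest pair was mmu-miR-219a-2-3p with mmu-miR-338-3p, with Pearson r = 0.941 and Spearman rho = 0.932 (permutation p = 1e-05 for each, the smallest that 100000 resamples can give; adjusted over the 6 pairs p = 2e-05 and 1.5e-05). With the 2 most extreme arrays left out, r was 0.920. The pair of the miR-219a-2 hairpin, mmu-miR-219a-2-3p with mmu-miR-219a-5p, had r = 0.919 and rho = 0.918 with the same p-values, and r = 0.884 with the 2 extreme arrays left out. mmu-miR-219a-5p with mmu-miR-338-3p, which share neither hairpin nor chromosome, had r = 0.853 and rho = 0.90 (r = 0.848 with the same rule).

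The 2 strands of the miR-338 hairpin were less tightly related, with r = 0.732 and rho = 0.871 (permutation p = 0.00097 and 3e-05; adjusted p = 0.00116 and 3.6e-05; r = 0.823 with the 2 extreme arrays left out). mmu-miR-338-5p had r = 0.816 with mmu-miR-219a-2-3p and r = 0.710 with mmu-miR-219a-5p (rho 0.909 and 0.803; adjusted permutation p = 0.000105 and 0.00206 for r, 1.5e-05 and 0.00022 for rho). With the 2 extreme arrays left out these were 0.822 and 0.535.

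The relations held within each slide of 8 arrays. At 4 °C, r ranged over the 6 pairs from 0.787 (mmu-miR-219a-5p with mmu-miR-338-5p) to 0.953, and at RT from 0.756 (the 2 miR-338 strands) to 0.949. The exact permutation test gave adjusted p-values of at most 0.016 at 4 °C and at most 0.0231 at RT for r, and of at most 0.0218 and 0.0279 for rho. In all, 30 correlations of the miRNAs were computed in brain, 18 of them between members. The scaling mattered for the dim strand. With each array divided by its 75th percentile over the miRNAs detected on all arrays, the 2 miR-338 strands had r = 0.128 (adjusted p = 0.634), while mmu-miR-219a-2-3p with mmu-miR-338-3p and mmu-miR-219a-5p with both kept an adjusted p of at most 0.0252 under each scaling tried.

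After VSN the 3 brighter miRNAs differed more between pieces than most, a ranking that depended on the scaling. The SD over the 16 arrays was 0.76 for mmu-miR-338-3p, 0.67 for mmu-miR-219a-2-3p and 0.64 for mmu-miR-219a-5p, against a median of 0.53 over the 432 miRNAs that were detected on all 16 brain arrays. The difference between mmu-miR-219a-2-3p and mmu-miR-338-3p on an array had an SD of 0.26. Their highest over lowest array was 7.73-fold for mmu-miR-338-3p and 4.69-fold for mmu-miR-219a-5p. With the 75th percentile over miRNAs detected on all arrays these folds were 3.91 and 2.53. Under that scaling the SD of mmu-miR-338-3p lay at percentile 44.9 of the miRNAs detected in brain, beside 81 with VSN. That of mmu-miR-219a-2-3p lay at 41.4 beside 73.4, and that of mmu-miR-219a-5p at 29.9 beside 69.7. With normexp they lay at 87.5, 82.2 and 85.4. mmu-miR-338-5p had an SD of 0.29, and 413 of the 432 miRNAs varied more, on a scale that compresses dim signals.

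Other miRNAs followed the same course over the brain arrays. The miRNA most like mmu-miR-338-3p over the 16 arrays was miR-21a-5p, with r = 0.99, followed by miR-92a-3p, miR-101a-3p and miR-15a-5p, each with r = 0.96, and miR-101c with r = 0.95. Over all 815 miRNAs, of which 432 were detected on all 16 brain arrays, the median r with mmu-miR-338-3p was 0.04, and 26 exceeded 0.9. miR-21a-5p, a miRNA found in most tissues, also led for mmu-miR-219a-2-3p with r = 0.94, before miR-92a-3p and miR-362-3p (0.90 each), miR-598-3p (0.89) and miR-330-3p (0.88). These values are descriptions over arrays that share slide and scaling.

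For mmu-miR-219a-5p the closest was miR-423-5p with r = 0.89, before miR-324-3p and miR-21a-5p (0.83 each), miR-199b-5p (0.77) and miR-598-3p (0.76). The r with miR-423-5p was 0.16 after quantile normalization, whereas that of mmu-miR-338-3p with miR-21a-5p was at least 0.95 under each scaling tried. For mmu-miR-338-5p the closest were miR-99a-3p (0.92) and miR-100-5p, miR-500-3p, miR-193a-3p and miR-140-3p (0.91 each).

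Lists of other cell types were set beside this pattern. The median r with mmu-miR-338-3p was 0.58 over the 15 other miRNAs linked to oligodendrocyte development, and 11 of the 15 were positive. It was 0.72 over the 10 neuronal miRNAs (10 positive), 0.71 over 6 miRNAs of microglia and blood cells (6 positive) and 0.79 over 3 miRNAs of the vessel wall (3 positive), beside 0.04 over all 815. Among the oligodendrocyte list, miR-146a-5p (r = 0.90), miR-23a-3p (0.89) and miR-23b-3p (0.88) were highest, and miR-17-5p (-0.37) and miR-138-5p (-0.35) lowest. With mmu-miR-219a-5p the medians were 0.35 for the oligodendrocyte list and 0.46 for the neuronal list, beside 0.17 over all miRNAs. The medians over all 815 are not a like baseline, since only 432 of these were detected on all 16 brain arrays. Of the lists, 12 of the 15 of oligodendrocyte development and each miRNA of neurons, of microglia and blood cells and of the vessel wall were.

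Markers of brain regions that a piece could hold were mostly dim. miR-204-5p, abundant in the choroid plexus and also 1 of the 15 of the oligodendrocyte list, ranged from 7.61 to 10.96 in brain and had r = 0.72 with mmu-miR-219a-2-3p, while miR-448-3p, the other marker of this list, was detected on 8 of 16 brain arrays. Of the 4 miRNAs of hindbrain and spinal cord, miR-10b-5p was detected on 0 and miR-10a-5p on 3 brain arrays, and the other two did not pass the filter. Of the 4 heart miRNAs, miR-1a-3p and miR-133a-3p were detected on all 16 brain arrays. They ranged from 4.99 to 7.81 and from 3.42 to 5.60, with r = 0.85 and 0.71 with mmu-miR-338-3p. miR-499-5p was detected on 1 brain array, and miR-208a-3p, which heart muscle makes, on none. Of the 3 liver miRNAs, miR-192-5p was detected on all 16 (3.62 to 5.86; r = 0.94 with mmu-miR-338-3p), miR-122-5p on 15 (1.76 to 4.83; r = 0.51) and miR-122-3p on 0. The part of region or of other cells in the differences between pieces was not tested.

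The third question was whether the miRNAs followed RNA integrity. In brain, a limma slope on RIN over the 16 arrays was called for 1 of the 4, beside 550 of 815 miRNAs (67.5%). Without the array of 96 h at RT, the most degraded with a RIN of 3.3, only 240 of 815 were called. On that array mmu-miR-219a-5p lay 0.01 above its mean over the 16 brain arrays, while mmu-miR-338-3p, mmu-miR-219a-2-3p and mmu-miR-338-5p lay below theirs, at -0.73, -0.58 and -0.56. The member called was mmu-miR-338-5p, higher in more intact RNA by 0.12 ± 0.0505 per RIN unit with an adjusted p of 0.04997, at the edge of the threshold. Without any 1 of 13 of the 16 arrays the call was lost, and without the array of 96 h at RT the adjusted p was 0.435.

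The slopes of the other 3 were -0.01 ± 0.112 for mmu-miR-219a-5p (95% interval -0.251 to 0.223), 0.13 ± 0.127 for mmu-miR-338-3p (-0.133 to 0.401) and 0.13 ± 0.113 for mmu-miR-219a-2-3p (-0.111 to 0.366), with adjusted p-values of 0.915, 0.35 and 0.317. The intervals do not exclude a change of 0.2 per RIN unit, so that these slopes do not show that the miRNAs were stable. As a correlation, RIN and mmu-miR-338-5p had r = 0.580 (permutation p = 0.0174; adjusted over the 4 miRNAs p = 0.0698) and rho = 0.305 (p = 0.247; adjusted p = 0.749), and r = -0.058 once the 2 arrays of most extreme RIN were left out, so that the relation rests on those arrays. The other 3 had r between -0.031 and 0.273. Under the 75th percentile of all miRNAs as scale, 3 of the 4 slopes were called, with 0.33 for mmu-miR-338-3p and 0.32 for mmu-miR-219a-2-3p.

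**Figure D3:**
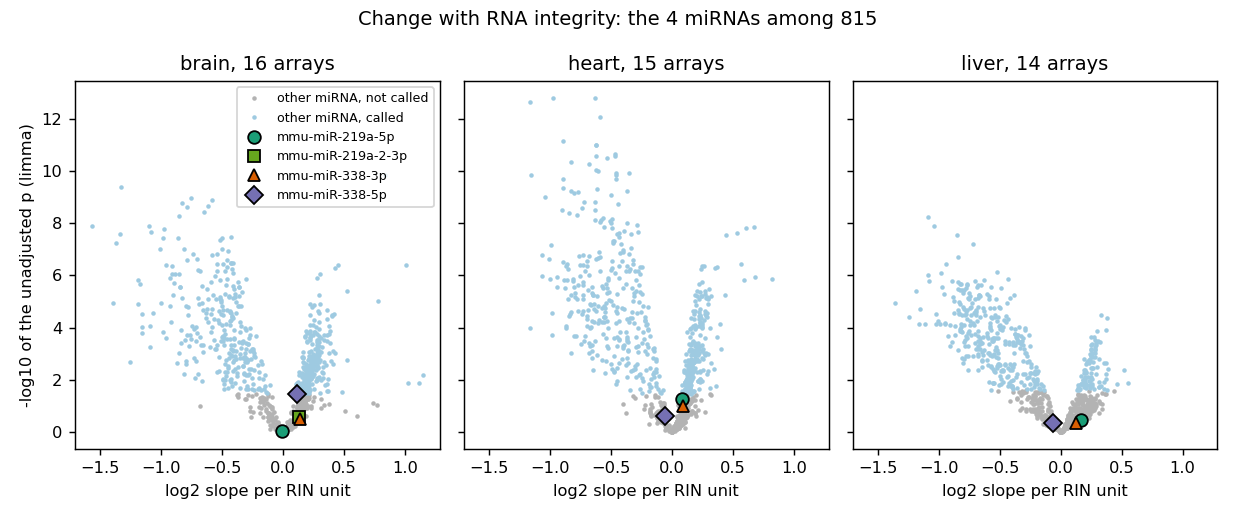
Slope of the log2 value per RIN unit (x axis) against the -log10 of the unadjusted limma p-value (y axis) for 815 miRNAs in brain (16 arrays), heart (15 arrays) and liver (14 arrays). Small points are other miRNAs, blue where the adjusted p is under 0.05, and large symbols are the members detected in that tissue. The members lie near the foot of each plot, with slopes from -0.06 to 0.16.

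In heart and liver mmu-miR-219a-2-3p was not detected and has no course to follow. The slope on RIN was called for 0 of the other 3 miRNAs, and 0 of the 3 had an unadjusted p under 0.05 (limma), beside 557 (68.3%) and 411 (50.4%) of 815. In heart, mmu-miR-219a-5p had 0.08 ± 0.0392 per RIN unit (95% interval -0.000789 to 0.166; adjusted p = 0.0723) and mmu-miR-338-3p 0.09 ± 0.0517 (adjusted p = 0.128). Both were called with quantile normalization, at 0.22 and 0.23 per RIN unit, while without scaling mmu-miR-219a-5p was called in the opposite direction, at -0.13. In liver the slopes were 0.16 ± 0.161 for mmu-miR-219a-5p and 0.12 ± 0.162 for mmu-miR-338-3p. The 8 liver arrays with a RIN of 6 or lower were then compared with the 6 over 6 by an exact Wilcoxon-Mann-Whitney test, which called 0 of the 3 miRNAs (0 at an unadjusted p under 0.05, and 0 by limma on the same arrays), beside 226 of 815 (27.7%). The mean difference of low minus high quality was -0.34 for mmu-miR-219a-5p (adjusted p = 0.939) and 0.42 for mmu-miR-338-5p (adjusted p = 0.829). Of the 8 arrays of low quality 7 came from the RT slide and animal, and of the 6 others 5 came from those of 4 °C. Quality is thus nearly the same contrast as slide and animal here, and limma with the slide as a block called 0 of 815.

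The fourth question was the course with storage time. In brain at RT, 0 of the 4 slopes on hours were called by limma (0 at an unadjusted p under 0.05), beside 548 of 815 (67.2%), a count that was 229 without the array of 96 h at RT. They were -0.05 ± 0.168 per 24 h for mmu-miR-219a-5p, -0.28 ± 0.158 for mmu-miR-219a-2-3p, -0.31 ± 0.185 for mmu-miR-338-3p and -0.16 ± 0.0804 for mmu-miR-338-5p. Without the array of 0 h, which held the lowest or nearly the lowest value of each, 3 of the 4 were called, with -0.39 for mmu-miR-219a-2-3p (adjusted p = 0.0224), -0.43 for mmu-miR-338-3p (0.0366) and -0.22 for mmu-miR-338-5p (0.00658).

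At 4 °C in brain the slopes ranged from -0.18 to -0.08 per 24 h and 0 of the 4 were called (0 at an unadjusted p under 0.05), beside 1 of 815 (0.123%), or 133 at an unadjusted p under 0.05. The difference between RT and 4 °C was called for 0 of the 4 (likewise 0 unadjusted), beside 100 of 815 (12.3%), and ranged from -0.16 ± 0.261 for mmu-miR-338-3p to 0.06 ± 0.238 for mmu-miR-219a-5p. The slopes of all miRNAs had medians near 0, of -0.03 at RT and -0.02 at 4 °C.

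Liver at RT differed from brain and heart at RT by the tests given below. There both bright miRNAs fell after 12 h while the dim 5p strand of miR-338 rose, a rise whose call depended on the scaling. In order of storage time, mmu-miR-219a-5p was 5.26, 5.98, 6.09, 5.39 and 4.75 up to 12 h, then 2.46, 1.73 (not detected) and 0.85. mmu-miR-338-3p was 4.60, 5.41, 5.52, 5.64 and 4.88 up to 12 h, then 1.91, 1.32 and 0.93, the last 2 not detected. The arrays up to 12 h and those from 24 h on did not overlap for either miRNA. This is a description, given without the share of all miRNAs that separate at this cut.

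mmu-miR-338-5p was 0.28 (not detected), 1.63, 1.81, 1.05 and 1.58 (not detected) up to 12 h, then 2.74, 2.96 and 2.18, so that its 3 highest values were those of the last 3 times. mmu-miR-219a-2-3p was not detected on any of the 8 arrays. The slopes of the 3p and 5p strands of the Mir338 hairpin, printed above, had opposite signs on the same arrays, and the difference between the strands was not tested.

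The fall was not parallel to the RIN. The RIN was 7.1, 6.0, 4.1 and 2.8 over the first 4 times and 2.7 at both 12 and 24 h, and it ended at 2.4 and 2.3. Between 12 and 24 h, at the same RIN, mmu-miR-219a-5p changed by -2.29, or 4.88-fold, and mmu-miR-338-3p by -2.97, or 7.82-fold. The piece of 6 h, with a RIN of 2.8, was not below that of 0 h, with a RIN of 7.1, for either miRNA (5.39 against 5.26, and 5.64 against 4.60). Over the same course the number of detected miRNAs went from 310 (0 h) through 525 (12 h) and 704 (24 h) to 726 (96 h), and the summed signal was 489226 units at 12 h beside 319493 at 24 h. The part of degradation products or of total signal in these courses was not tested.

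A limma fit over all 45 arrays with a line on hours for each tissue and temperature, added after the values had been seen, gave -1.34 ± 0.19 per 24 h for mmu-miR-219a-5p in liver at RT (95% interval -1.73 to -0.957; adjusted p = 1.53e-07). It gave -1.25 ± 0.214 for mmu-miR-338-3p (adjusted p = 4.13e-06) and 0.34 ± 0.136 for mmu-miR-338-5p (adjusted p = 0.0224). Over all miRNAs 277 of 815 fell (34%) and 336 rose (41.2%), with a median slope of 0.15. The falls of both bright miRNAs were called without each of the 8 liver arrays in turn, and without the array of 96 h they were -2.25 for each, while with normexp they were -0.43 and -0.35. The rise of mmu-miR-338-5p was lost without the array of 0 h (adjusted p = 0.098) or of 48 h (0.0787), and was 1.04 without that of 96 h. It was also lost with quantile normalization (0.24; adjusted p = 0.231), with the 75th percentile of all miRNAs (0.22; adjusted p = 0.218) and with Bonferroni adjustment, and was 0.04 with normexp (adjusted p = 0.00382). Of the 15 other miRNAs linked to oligodendrocyte development, 13 fell and 2 rose, with a median slope of -0.94, and of the 10 neuronal miRNAs 6 fell and 1 rose. Lists of other cells fell as well. These were 6 of 6 miRNAs of microglia and blood cells (median -1.29), 3 of 3 of the vessel wall (-1.35) and 3 of 3 of liver (-1.24). Of the 4 heart miRNAs 2 fell and 1 rose (-0.23). The fall was thus not particular to miR-219 and miR-338 or to the oligodendrocyte list. Detection in liver was not required for these lists, so that the counts include miRNAs near background there. miR-124-5p and miR-495-3p of the neuronal list were detected in brain only, and miR-138-5p of the oligodendrocyte list on 17 of 45 arrays, 16 of them brain.

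**Figure D4:**
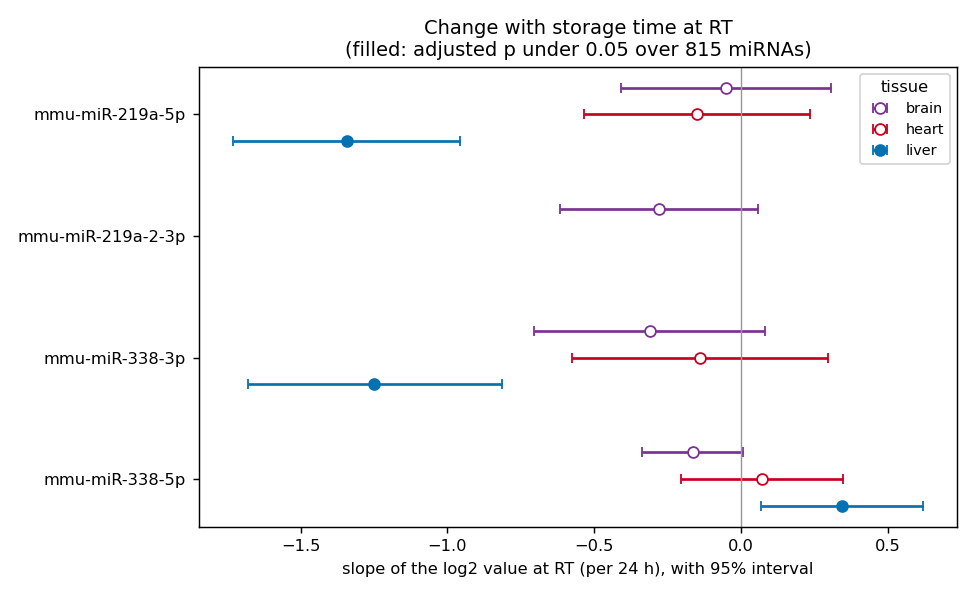
Slope of the log2 value per 24 h of storage at RT (x axis) for each of the 4 miRNAs (y axis), drawn where it was detected, in brain (16 brain arrays fitted alone), heart and liver (fit over all 45 arrays), with bars for the 95% interval. Filled points have an adjusted p under 0.05 over 815 miRNAs. In liver, mmu-miR-219a-5p lies at -1.34 and mmu-miR-338-3p at -1.25, and their intervals do not reach those of heart and brain.

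The slopes of liver and brain at RT were compared directly in the same fit. The difference, liver minus brain, was -1.29 ± 0.268 per 24 h for mmu-miR-219a-5p (limma adjusted p = 0.000465), -0.94 ± 0.303 for mmu-miR-338-3p (0.0148) and 0.51 ± 0.192 for mmu-miR-338-5p (0.0351), beside 299 of 815 called (36.7%). The last was lost without the liver array of 0, 6 or 48 h (adjusted p = 0.0749, 0.0508 and 0.0811), and that of mmu-miR-338-3p with normexp (-0.10; adjusted p = 0.571). Against heart, mmu-miR-219a-5p had -1.19 ± 0.268 (0.000919) and mmu-miR-338-3p -1.11 ± 0.303 (0.0047), and mmu-miR-338-5p 0.27 ± 0.192 (0.306), beside 256 of 815 called (31.4%). With normexp the first pair were -0.28 and -0.20 and were not called (adjusted p = 0.201 and 0.301). The 3 tissues came from arrays of different slides, and a line is a poor summary of a level that drops between 12 and 24 h.

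In heart at RT, 0 of the 3 slopes were called (0 at an unadjusted p under 0.05, limma), beside 425 of 815 (52.1%). mmu-miR-219a-5p was 4.82 at 0 h and 5.08 at 48 h, at RIN values of 9.0 and 4.6, and 4.10 at 96 h with a RIN of 2.2. mmu-miR-338-3p was 4.73, 5.12 and 4.34 on these arrays. The heart array of 96 h was the lowest of its 8 for both. At 4 °C, 0 of the 3 were called in heart (beside 0 of 815, or 0%, with 49 at an unadjusted p under 0.05) and 0 of the 3 in liver (beside 24 of 815, or 2.94%), and none of these slopes had an unadjusted p under 0.05. The 6 liver arrays at 4 °C varied widely without order in time, from 2.85 at 0 h (not detected) to 5.75 at 48 h for mmu-miR-219a-5p and from 2.44 (not detected) at 0 h to 5.44 at 1 h for mmu-miR-338-3p.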

How the data were processed

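Total RNA of tissue pieces was hybridised to 1 array each, and per the methods the pieces of all tissues at a temperature came from 1 animal. A fit with the animal as a block was added after the data were seen. The authors deposited Feature Extraction files with background-subtracted intensity values and detection flags per spot (their signal columns were used), and a table of log2 values after VSN. VSN was refitted over the 45 arrays. The same fit over 46 arrays differed from the authors' log2 table by at most 0.00166. A heart piece of 0 h (4 °C slide) was left out, as in the study, for low quality. The members and lists were chosen with earlier results of these data known. Members detected on at least 5 arrays were described in full, together with the 5 miRNAs most like each in brain. Results of tests of their differences, slopes and correlations are given only for tissues where they were detected. Dixon's test for outlying values covered all 24 sets of values, also those without detection. limma 3.58.1 (R 4.3.3) fitted all 815 miRNAs, with Benjamini-Hochberg adjustment and a threshold of 0.05. Replicates at a time are lacking, so that p-values measure the spread between arrays around a mean or line. Alternatives were the deposited table, other scalings, normexp with an offset of 50 (on median signals, the files hold no mean signal), other detection filters, Bonferroni adjustment, slide terms and leaving out arrays. Scripts were tested on simulated data. The number of arrays limits the precision. Each miRNA had 30 spots in 2 or 4 probes.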

Additional observations from a re-analysis of the deposited data

Results flagged for a closer look

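Of the 24 sets of values that the 4 miRNAs and 6 groups give, Dixon's test at its 95% critical value marked 3, where chance marks about 1 in 20. All 3 were low values of arrays without detection. mmu-miR-219a-2-3p was -3.51 on the heart array of 24 h at RT, where it was not detected on any heart array, with a gap of 0.73 of the group's range. mmu-miR-338-5p was 0.59 on the heart array of 12 h at 4 °C (gap of 0.837) and 0.65 on the liver array of 1 h at 4 °C (gap of 0.636).

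The slope on storage time at RT differed between tissues by limma's test of the difference. Liver minus brain was -1.29 per 24 h on the log2 scale for mmu-miR-219a-5p, -0.94 for mmu-miR-338-3p and 0.51 for mmu-miR-338-5p. Liver minus heart was -1.19 for mmu-miR-219a-5p and -1.11 for mmu-miR-338-3p. These comparisons were added after the values had been seen.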

How the results depend on the processing

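The 3 miRNAs detected in all tissues were called higher in brain than in heart and than in liver under each of the 14 and 13 alternatives run. The difference for mmu-miR-219a-5p ranged from 4.21 to 6.15 against heart and from 4.04 to 7.16 against liver, and that for mmu-miR-338-5p fell to 0.10 against heart with normexp. Between heart and liver 0 were called with quantile normalization, Bonferroni adjustment, all 45 arrays or the heart array of 0 h kept, and 2 with no scaling between arrays. With the 75th percentile of miRNAs detected on all arrays and with normexp the 1 call was mmu-miR-338-5p in place of mmu-miR-338-3p.

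For the brain slope on RIN, 0 were called with the deposited table, no scaling, no filter on detection or Bonferroni adjustment, 2 with quantile normalization and 3 with either 75th percentile. Without scaling mmu-miR-338-5p turned to -0.12 per RIN unit (adjusted p = 0.148). Leaving out 1 brain array gave 0 to 1 calls. For the heart slope on RIN, 2 were called with positive slopes with either 75th percentile or quantile normalization, and 3, 1 of them negative, with normexp. Without scaling 2 had negative slopes, with mmu-miR-219a-5p turned to -0.13. For the liver slope 1 was called with no scaling. For RIN as a correlation in brain, 1 passed with the 75th percentile of miRNAs detected on all arrays, quantile normalization or normexp, 2 with the 75th percentile of all miRNAs, and 0 to 1 without 1 array.

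For the brain slope on hours at RT, 2 were called with the 75th percentile of miRNAs detected on all arrays, quantile normalization or normexp, 3 with the 75th percentile of all miRNAs, and 0 to 3 without 1 array. For the difference of RT and 4 °C, 1 was called with the 75th percentile of all miRNAs and 1 with quantile normalization. The heart slope at RT gave 1 call with no scaling. Liver minus brain at RT gave 1 call with Bonferroni adjustment, and liver minus heart 0 with it and 0 with normexp. Of the 6 pairs of miRNAs in brain, 3 passed with the 75th percentile of miRNAs detected on all arrays. The falls of mmu-miR-219a-5p and mmu-miR-338-3p in liver at RT were called under all alternatives run, at -0.43 and -0.35 with normexp. The other 275 counts stayed within 1.5 times. The cause was not tested.

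Over all miRNAs, the share of calls that were higher in brain was 68.3% against heart (46.3% to 74.8% by scaling) and 79.9% against liver (51.6% to 93.5%). The median of all miRNAs shifted by -0.47 to 0.05 and by -1.12 to 0.05. Of the calls between heart and liver 82.8% were higher in heart (47% to 92.2%), and of those in liver at RT 54.8% rose (50.5% to 72.4%). On RIN the share with a positive slope was 47.1% in brain (2.74% to 63.2%), 42.7% in heart (2.59% to 54.5%) and 22.9% in liver (0.735% to 46.2%). Low against high quality in liver gave 226 calls (82 to 226 by scaling), 485 with no filter and 0 with Bonferroni adjustment or with limma and the slide as a block. The liver slope on RIN gave 411 calls and 258 with the slide as a block. The fit of all 45 arrays gave 345 calls in place of 562 between brain and heart and 250 in place of 441 between heart and liver. Without the brain array of 96 h at RT, the brain slope on RIN gave 240 calls in place of 550, that on hours at RT 229 in place of 548 and the difference of RT and 4 °C 53 in place of 100. The last gave 5 without the array of 96 h at 4 °C, 52 on log2 hours and 226 to 275 under 5 of the 6 other scalings. Slopes at 4 °C gave 0 to 98 calls in place of 1 in brain, 0 to 20 in place of 0 in heart and 0 to 95 in place of 24 in liver. No filter on detection gave 915 to 1243 calls in 8 comparisons. Bonferroni adjustment left 146 on RIN in brain and 334 in liver at RT.

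With the animal of each temperature as a replicate block in the comparison of tissues, mmu-miR-219a-5p was 5.96 higher in brain than in heart and 6.34 than in liver, and no call changed. Signals near background limit mmu-miR-338-5p, detected on 39 arrays, and mmu-miR-219a-2-3p outside brain, where it was not detected and its level is not known.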

Other observations

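The heart array of a piece of 0 h on the 4 °C slide, which entered no comparison of the main text, had after VSN over 46 arrays 1.97 for mmu-miR-219a-5p, 2.34 for mmu-miR-338-3p, 1.46 for mmu-miR-338-5p and -2.49 for mmu-miR-219a-2-3p, and none of the 4 was detected on it. After VSN over 45 arrays the 15 other heart arrays had at least 4.10 for mmu-miR-219a-5p and at least 4.34 for mmu-miR-338-3p.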
